A study of Mus musculus with 8 samples.

Results

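The genes for the proteins of the cytosolic ribosome were followed in CD90.1+ OT-I T cells taken from KPC_OVA tumours, across the states of these cells, the antibody given and the gene knocked out. Members were all gene features whose names begin with Rpl or Rps and a digit, with Rplp and a digit, or are Rpsa. Pseudogene copies with -ps in the name and the Rps6k kinases were left out. The rule gave 86 of 32285 gene features, which are 31 proteins of the small subunit, 43 of the large subunit, the 3 stalk proteins Rplp0, Rplp1 and Rplp2, 8 paralogs and Rps19bp1. Rps19bp1 binds a ribosomal protein but is not one, and its name alone brought it in. No measured value entered the rule. The paralogs Rpl10l, with 0 UMIs in all libraries, and Rpl3l, with 1 UMI, were too low to be tested, so that 84 members were.

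The cytosolic ribosome builds proteins from mRNA. Its small subunit reads the message, its large subunit forms the peptide bond, and the stalk on the large subunit recruits the translation factors. The messages for its proteins begin with a run of pyrimidines, the 5′ terminal oligopyrimidine (TOP) motif, through which mTORC1 and Larp1 set how much of them is translated. When CD8+ T cells are activated they enlarge their pool of ribosomes, which needs ribosomal proteins and the nucleolar machinery of ribosome biogenesis alike.

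OT-I cells are CD8+ T cells with a receptor for an ovalbumin peptide, here from Cas9 knock-in mice, and had been transduced with lentiviral guides, each against 1 of 83 metabolic genes, or with nontargeting guides. They were transferred into mice with KPC_OVA tumours, an orthotopic pancreatic ductal adenocarcinoma model that expresses ovalbumin, and sorted from the primary tumour 7 days later. Mice received aPD-1, an antibody against the PD-1 receptor (3 libraries), or IgG as control (1 library). All groups thus shared the OT-I receptor, Cas9, the guide library and the tumour. The recipients carried Cas9 too and kept their own immune cells. The study used more mice than there are libraries, so that a library can pool animals, and the labels do not tie libraries to mice. P-values therefore rest on libraries and not on mice, and the spread they measure may be partly technical. Fits of states and knockouts removed the differences between libraries, so that their p-values measure the spread left over all states or targets.

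After filtering, 2535, 2597 and 6432 cells with exactly 1 guide remained in aPD-1 replicates 1, 2 and 3 and 11495 in IgG, 23059 in all. Unique molecular identifiers (UMIs), which count captured mRNA molecules, had medians of 16829, 16325 and 12084 per cell in the aPD-1 replicates and 6329 in IgG. Depth therefore differed with treatment. The titles of aPD-1 replicates 1 and 2 share a code that the other libraries do not carry, and the labels do not say what it stands for. The study's methods speak of a pair of batches without saying which library belongs to which. Pairs of libraries shared between 3 and 18 cell barcodes. The libraries held between 142945121 and 155974184 UMIs of genes over all barcodes, and the kept cells between 48182760 and 88543446. A list of 8 T cell genes summed to between 6533 and 7124 CPM (UMIs of a gene per 1000000 UMIs) in each library, whereas myeloid genes reached at most 26.7 CPM and epithelial or tumour genes at most 22.2 CPM, with Cldn4 at 0. B or plasma cell genes ranged from 57.6 to 252 CPM per library and were uneven between states.

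The sequences around the transcription start show how far the letters of the TOP motif were present. Each line gives 10 bases before the RefSeq start (GRCm38.p6) and 20 from it on, 5′ to 3′ on the transcribed strand, and capitals mark a C followed by at least 4 C or T bases that begins within 5 bases of the start. The first 6 genes are ribosomal proteins of either subunit and the stalk, and the last 3 are paralogs whose levels moved apart from those of their partners in the results that follow. All 9 were picked by hand and do not represent the members. Whether the run differs between paralogs and other members was not tested.
Rps6, chr4:86857348-86857377, minus strand: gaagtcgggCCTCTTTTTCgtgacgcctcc
Rps27, chr3:90213629-90213658, minus strand: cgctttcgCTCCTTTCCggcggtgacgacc
Rpl15, chr14:18270967-18270996, minus strand: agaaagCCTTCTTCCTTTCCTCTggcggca
Rpl28, chr7:4792955-4792984, plus strand: tctcgtgtCTCTCTTTCCgtctccggccgc
Rpl35, chr2:39005112-39005141, minus strand: ccgccCTTTCCTCTTTCTCTCgaaccaggc
Rplp2, chr7:141447641-141447670, plus strand: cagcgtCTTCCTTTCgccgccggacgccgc
Rps27l, chr9:66946076-66946105, plus strand: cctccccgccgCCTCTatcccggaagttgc
Rpl7l1, chr17:46782637-46782666, minus strand: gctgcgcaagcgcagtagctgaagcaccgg
Rpl36al, chr12:69184048-69184077, minus strand: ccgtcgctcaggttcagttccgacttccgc
Capitals start no earlier than 5 bases before the start, so that a run can extend further upstream in lower case. In Rps27l, of which the first of 2 promoters is shown, the run was 5 bases long. In Rpl7l1 and Rpl36al none began within 5 bases of the start. RefSeq promoters were matched for 66 of the 86 members, of which 30 had the run in any promoter. The run was found in 32 of their 78 promoters (41%) and in 18.3% of 32773 promoters of other genes. It began exactly at the start in 17.9% of the members' promoters and in 2.47% of the others. A match of letters is a description and not a functional site.

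Ribosomal protein genes held close to 30% of all UMIs. Their share was 29.3%, 30.2% and 29.9% in aPD-1 replicates 1, 2 and 3 and 31.1% in IgG. Within each library, the central 90% of cells lay between 21.5% and 39.4%. Proteins of the large subunit made up 50.2% of the members' UMIs, those of the small subunit 44.2%, the stalk 4.71% and the paralogs 0.932%. Every core protein was detected at a high level. Rpsa, of the small subunit, held 7119, 7432 and 7304 CPM in aPD-1 replicates 1, 2 and 3 and 8095 CPM in IgG, and Rpl31, of the large subunit, held 1111, 1135, 1094 and 1119 CPM. These were the highest and the lowest of the core proteins by the mean of the libraries, and since 1 UMI stands for 1 captured 3′ end, levels were not divided by length. The paralogs ranged from Rpl36al (1160 to 1249 CPM) and Rpl22l1 (936 to 1154 CPM) through Rps27l (383 to 498 CPM) and Rps27rt (104 to 126 CPM) to Rpl7l1 (71.9 to 75.3 CPM) and Rpl39l (0.655 to 2.81 CPM).

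Cells were grouped into 9 clusters from variable genes that excluded the members and their pseudogene copies, so that the members did not define the clusters. Of these clusters, 7 were named from marker lists. The largest, cluster 0 (8059 cells, led by Gzmc and Spp1), scored highest for exhausted genes (Pdcd1, Havcr2, Lag3 and others), but its leading gene was no marker and it stayed unnamed. It served as the reference. The named clusters were proliferating G1/S-like (4317 cells), replication histone-like (3271), effector-like (3265, led by Xcl1 and Ifng), proliferating G2/M-like (1855), precursor exhausted-like (1260), effector memory-like (674, led by Klf2 and S1pr1, with Tcf7 also among its leading genes) and interferon response-like (119). Cluster 7 (239 cells, led by Gm42418 and Lars2, with the G2/M markers Mki67, Cenpe and Cenpf also among its leading genes) stayed unnamed. It and the interferon response-like cells had enough cells for a sum, 20 or more, only in aPD-1 replicate 3 and IgG.

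Precursor exhausted-like cells, which were led by Ccr7 and Tcf7, had the highest share of ribosomal protein UMIs. It was 36.3% ± 1.17 (SD, n = 4 libraries), 5.93 percentage points above the reference cluster, which held 30.4% ± 0.892. The difference was between 5.48 and 6.47 points in each of the 4 libraries, and the lowest library of the precursor exhausted-like cells, at 35%, lay above the highest library of every other state. Effector-like cells came next with 31.6% ± 0.813, 1.18 points above the reference and higher in 4 of 4 libraries. The interferon response-like cells held 30.3% ± 1.95 (n = 2), below the reference in aPD-1 replicate 3 and above it in IgG. Proliferating G1/S-like cells held 29.9% ± 0.851 and effector memory-like cells 29.2% ± 1.58. Proliferating G2/M-like cells, at 28.7% ± 0.493, and replication histone-like cells, at 28.2% ± 0.846, were the lowest of the named states. Neighbours in the order of the middle states overlapped: G1/S-like cells exceeded effector memory-like cells in 3 of 4 libraries.

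**Figure D1:**
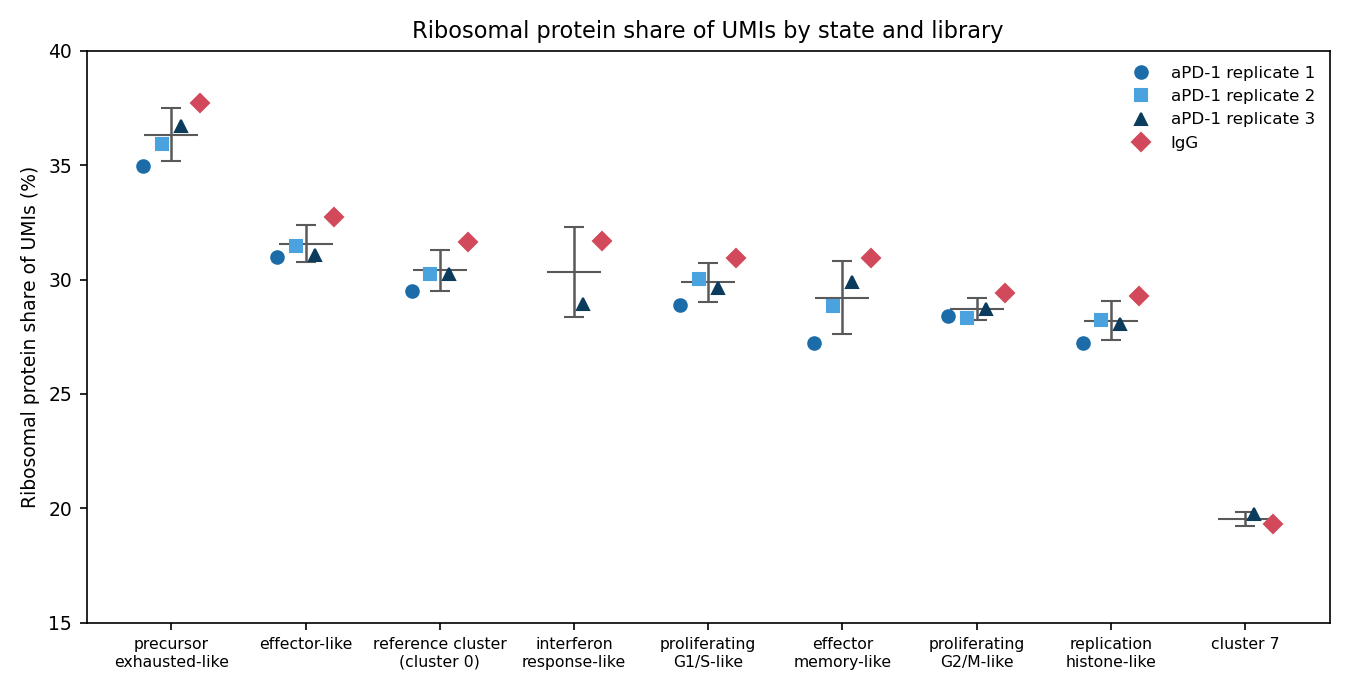
Share of UMIs from ribosomal protein genes (%, axis from 15 to 40) in each state, with 1 point per library with at least 20 cells, and the mean and SD over libraries in grey. The precursor exhausted-like cells stand above all other states in each library, cluster 7 lies near 19.5%, and the IgG library is the highest within every named state.

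In an exact two-sided sign-flip permutation test within libraries, each of the 6 states measured in 4 libraries reached p = 0.13, the smallest value that 4 libraries allow. Depth moved with state. The median UMI count relative to the library was between 0.829 and 0.924 in precursor exhausted-like cells and between 1.31 and 1.45 in replication histone-like cells. When every cell was thinned to 2000 UMIs, the differences were 6.49 points for the precursor exhausted-like and -2.42 points for the replication histone-like cells, whereas that of the effector memory-like cells shrank from -1.18 to -0.682 points and was no longer below the reference in every library. Genes of B or plasma cells moved with the precursor exhausted-like state. Their 9 genes summed to 100 CPM, 72.3 CPM, 4919 CPM and 168 CPM in this state in aPD-1 replicates 1, 2, 3 and IgG and to between 64.1 and 82 CPM in the reference. Without the cells that had 10 or more UMIs from lists of other cell types, the difference in share was 6.0 points, and without aPD-1 replicate 3 it was 5.75 points. With clusters drawn at the lower resolution of 0.2, the difference of the precursor exhausted-like cells was 3.34 points.

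Single genes were tested by edgeR's quasi-likelihood test on the UMIs of each state within each library. The library was a term of the fit, and p-values were Benjamini-Hochberg adjusted over 12018 genes. Levels are given as CPM of that sum. Levels of 83 of the 84 members differed among the states, as did those of 86.5% of all genes, and Rpl39l was the member that did not pass (adjusted p = 0.829). The 84 members are therefore read by direction and size.

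Precursor exhausted-like cells had 79 of 84 members above the reference cluster and 0 below it, while 13.1% of all genes were above and 12.5% below it. The median change of the members was 0.29 on the log2 scale, or 1.22-fold, against 0.01 for all genes. The same 79 of 84 members (94%) were higher in each of the 4 libraries, as were 15.9% of all genes. All 31 proteins of the small subunit, 42 of the 43 of the large subunit and all 3 stalk proteins passed, so that the rise was shared and small for each gene. It ran from 0.12 for Rpl36al, the lowest of those that passed, to 0.47.

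The largest rises included the stalk protein Rplp1, which stood at 5211, 5201, 4550 and 4941 CPM in the reference cells of aPD-1 replicates 1, 2, 3 and IgG and at 6773, 7018, 6266 and 6660 CPM in the precursor exhausted-like cells. The groups did not overlap, with a log2 fold change of 0.47 ± 0.03 (SE, adjusted p = 2.26e-14). Rps12, of the small subunit (chr10:23785183-23787275, minus strand, in the GENCODE M21 annotation of GRCm38), rose from 5220, 5421, 5467 and 6114 CPM to 7142, 7166, 7382 and 8141 CPM, by 0.47 ± 0.03 on the log2 scale (adjusted p = 5.83e-14). Again every precursor exhausted-like value exceeded every reference value. Rps20 (log2 fold change 0.45) and Rpl36a (0.45) were also among the 5 largest. The other stalk proteins rose less, with log2 fold changes of 0.28 for Rplp0 and for Rplp2.

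Of the 5 members that did not pass, Rpl13a was the only core protein. It stood at 3974, 3943, 3557 and 3869 CPM in the reference and 4177, 4062, 3375 and 3754 CPM in the precursor exhausted-like cells, which overlap (log2 fold change 0.04 ± 0.04). The others were Rps19bp1 (-0.11) and the paralogs Rpl7l1 (-0.06), Rps27l (-0.09) and Rpl39l (0.15). The number of members above the reference was between 78 and 79 when any library was left out, and 79 when the cells with 10 or more UMIs from the marker lists of other cell types were removed.

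**Figure D2:**
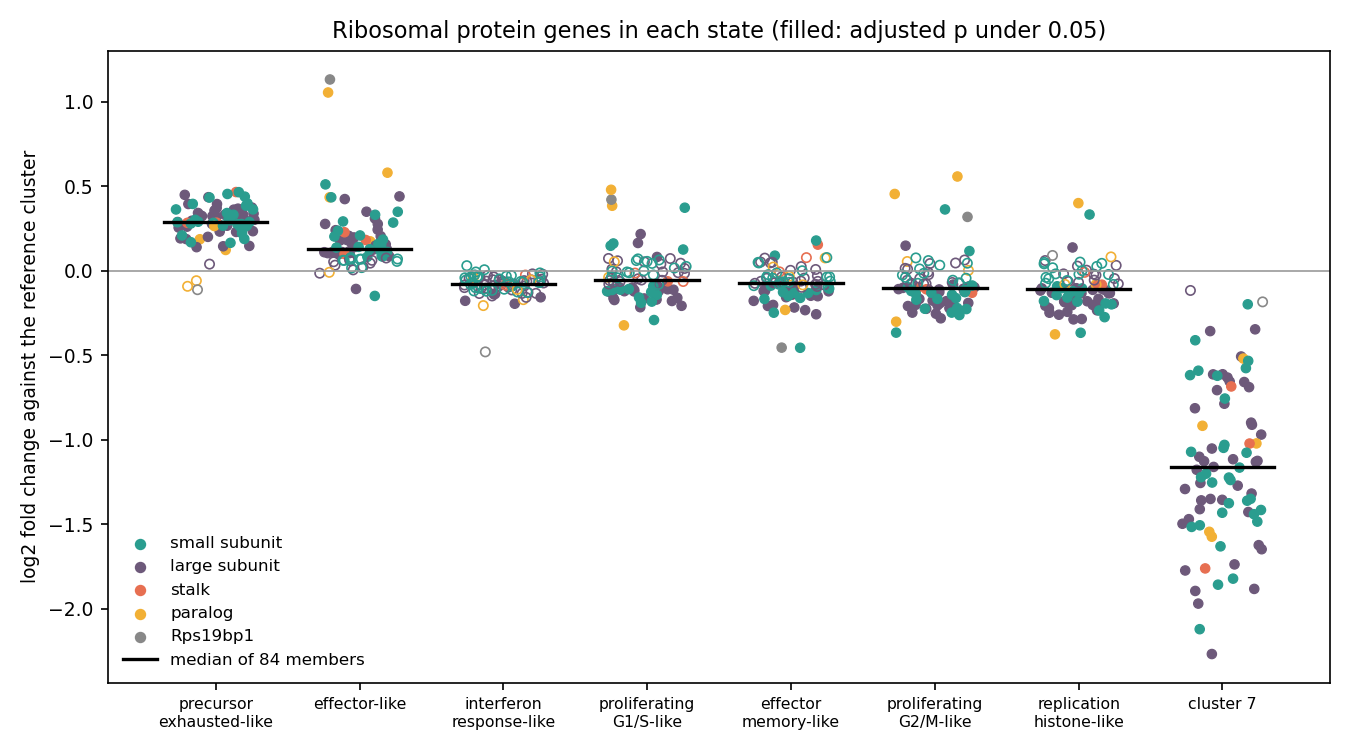
Log2 fold change of each tested member against the reference cluster, in 8 states, coloured by subunit, with filled points for an adjusted p under 0.05 and a black line at the median of 84 members. Rpl39l, with too few UMIs for a stable fold change, is not drawn. The precursor exhausted-like points sit almost entirely above 0 around 0.29, whereas those of cluster 7 spread down to -2.27.

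Effector-like cells, led by the chemokine gene Xcl1 and the cytokine gene Ifng, showed a smaller and less even rise. In them 60 of 84 members were above the reference and 2 below it, with a median of 0.13 on the log2 scale. Of all genes, 27.5% were above and 32.5% below it, and their median was -0.07. The count depended on the scaling: 37 members were higher when libraries were scaled to their total UMI count only. The 2 that fell were Rps15a (-0.15 ± 0.03) and Rpl39 (-0.11 ± 0.03).

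The largest rises in effector-like cells belonged to members at the margin of the family. Rps19bp1 (chr15:80260615-80264315, minus strand) stood at 41.8, 44.3, 38.3 and 39.1 CPM in the reference cells and at 79.3, 87.3, 89 and 83.3 CPM in effector-like cells, without overlap (log2 fold change 1.13 ± 0.07, adjusted p = 5.06e-14). Rpl7l1, a paralog of Rpl7 (chr17:46773907-46782672, minus strand), rose from 60.6, 61.9, 58.4 and 56.1 CPM to 108, 111, 124 and 123 CPM, a log2 fold change of 1.06 ± 0.06 (adjusted p = 1.01e-15). Rps27l (0.58) and Rpl31 (0.44) were also among the largest. Rpl31 is a core protein of the large subunit, and it was above the reference in the effector-like, precursor exhausted-like and all proliferating states.

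Other genes of the translation machinery were read in the same fits. The ribosome biogenesis list holds 40 nucleolar and rRNA-processing genes. In effector-like cells 40 of 40 rose, with a median of 1.54 on the log2 scale, among them Polr1b (2.30), a subunit of RNA polymerase I, and the nucleolar proteins Nop16 (2.25), Gnl3 (2.20) and Nolc1 (2.11). In precursor exhausted-like cells 4 of the same 40 rose and 2 fell, with a median of 0.06, where 13.1% of all genes rose and 12.5% fell. Npm1, which escorts ribosomal subunits, was the largest there with 0.54. Of 27 initiation factors, 25 rose and 2 fell in effector-like cells, led by the cap-binding protein Eif4e (1.12), where 27.5% of all genes rose and 32.5% fell. In precursor exhausted-like cells 8 of the 27 rose and 2 fell.

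The list of elongation factors and genes set beside them holds 8 genes. In precursor exhausted-like cells 5 of 8 rose, with Eef1g at 0.51, Eef1b2 at 0.41 and Eef1a1, which delivers tRNAs to the ribosome, at 0.26. In effector-like cells 5 of 8 rose and 1 fell. Eef1e1 (1.85), which is not itself an elongation factor despite its name, and Eif5a (1.26) rose most. The mitochondrial ribosome builds the proteins encoded in mitochondrial DNA. The counts of every list here are read beside all genes, of which 27.5% were higher and 32.5% lower in effector-like cells. In precursor exhausted-like cells 13.1% of all genes were higher and 12.5% lower. Of the small mitochondrial subunit, 25 of 29 rose in effector-like cells and 4 of 29 in precursor exhausted-like cells. For the large mitochondrial subunit, 39 of 49 rose and 2 fell in effector-like cells, and 11 of 49 rose and 1 fell in precursor exhausted-like cells. Of 21 genes of mTORC1 signalling, 7 rose and 3 fell in effector-like cells, where Myc (1.82) and Larp1 (1.11), a TOP-binding protein, were among the largest. In precursor exhausted-like cells 3 of 21 rose and 4 fell, with Castor1, an arginine sensor, at 2.16, Rps6ka1 at -0.60, Mtor at -0.50 and Myc at 0.44. In both states the part of the mTORC1 list that rose was near the share of all genes.

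**Figure D3:**
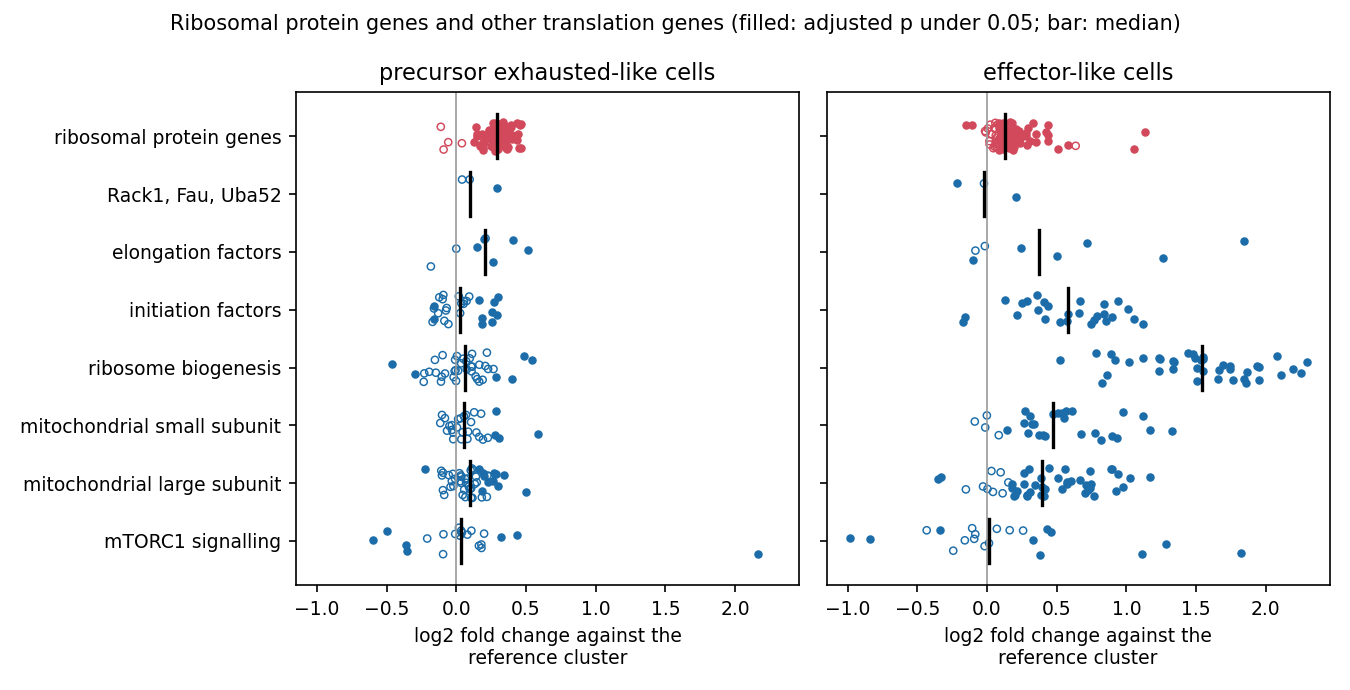
Log2 fold change against the reference cluster for ribosomal protein genes (red) and 7 other lists (blue) in precursor exhausted-like and effector-like cells, with filled points for an adjusted p under 0.05 and a bar at each list's median. Ribosome biogenesis genes lie around 0.06 in precursor exhausted-like and around 1.54 in effector-like cells, while ribosomal protein genes lie at 0.29 and 0.13.

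The states were then compared with each other directly. Against effector-like cells, precursor exhausted-like cells had 59 of 84 members higher and 6 lower, with 26.9% of all genes higher and 24.4% lower. The median of the members was 0.16 on the log2 scale and that of all genes 0.06, and when libraries were scaled on the genes outside the family these medians were 0.30 and 0.21. Without aPD-1 replicate 3, 47 members were higher and 11 lower, with a median of 0.10. Rps20 (0.37 ± 0.04), Rpl39 (0.36 ± 0.03) and Rps15a (0.36 ± 0.04) differed most upward. The 6 lower members were Rps19bp1 (-1.24), Rpl7l1 (-1.11), Rps27l (-0.67), Rpl36al (-0.31), Rps6 (-0.13) and Rpl5 (-0.09). In the same contrast 40 of 40 ribosome biogenesis genes were lower, with a median of -1.55, and 22 of 27 initiation factors were lower and 2 higher. Of the mitochondrial ribosome, 21 of 29 genes of the small subunit were lower and 0 higher, and 34 of 49 of the large subunit were lower and 4 higher.

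All 3 stalk proteins passed in effector-like and in G2/M-like cells. In effector-like cells Rplp1 (0.23), Rplp2 (0.18) and Rplp0 (0.10) rose, and in G2/M-like cells Rplp2 (-0.13), Rplp0 (-0.11) and Rplp1 (-0.10) fell. In the unnamed cluster 7 their falls were unequal, with -1.76 for Rplp0, -1.02 for Rplp2 and -0.68 for Rplp1.

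Cycling cells had lower levels of many ribosomal proteins. Replication histone-like cells had 48 of 84 members below the reference and 3 above it, where 31% of all genes were below and 23.9% above it, and a median of -0.11 against -0.08 for all genes. Of the large subunit 30 of 43 were lower and of the small subunit 15 of 31. G2/M-like cells also had 48 below, with 6 above, where 21.3% of all genes were below and 18.4% above it, and a median of -0.10 against -0.04 for all genes. The changes were small. Rps27 (chr3:90212522-90213651, minus strand) fell most among the core proteins in replication histone-like cells, from 2920, 2866, 2796 and 2251 CPM to 2389, 2285, 2093 and 1684 CPM in aPD-1 replicates 1, 2, 3 and IgG. It was lower within each library although the groups overlap across libraries, with a log2 fold change of -0.37 ± 0.03 (adjusted p = 1.79e-10). Rpl34 (-0.29), Rpl24 (-0.29) and Rps15a (-0.27) were next. In G2/M-like cells Rps27 (-0.37), Rpl34 (-0.28) and Rps15a (-0.26) fell, and Rps27l (0.56) and Rpl7l1 (0.45) rose. Without aPD-1 replicate 2, the count in G2/M-like cells was 26 lower and 8 higher.

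In G1/S-like cells 34 members were below the reference and 10 above it, where 30.6% of all genes were below and 23.8% above it, and the members' median was -0.06 against -0.08 for all genes. This count was not stable. It was 15 lower and 11 higher without aPD-1 replicate 2, and 8 lower and 10 higher in cells with nontargeting guides alone. Rps27l (0.48), Rps19bp1 (0.42) and Rpl7l1 (0.38) rose, and Rps27 (-0.29) and Rpl34 (-0.21) fell. In these cells 39 of 40 ribosome biogenesis genes rose, with a median of 0.71.

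Effector memory-like cells had 32 of 84 members below the reference and 3 above it, with 14.8% of all genes below and 15.4% above. Rps15a fell by 0.46 on the log2 scale, Rps19bp1 by 0.45, Rpl36a by 0.26 and Rps26 by 0.25, while Rplp1 (0.15) and Rps21 (0.09) were among those that rose. The count ranged from 15 to 52 when single libraries were left out, and in aPD-1 replicate 3 and IgG alone 4 were lower and 10 higher. Interferon response-like cells had 4 members below the reference, Rpl14 (-0.19), Rpl35 (-0.18), Rpl9 (-0.16) and Rpl17 (-0.14), where 0.899% of all genes were below and 1.96% above. None of the 4 was called with either other scaling, with DESeq2, without cluster 7 or without aPD-1 replicate 1 or 2.

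Cluster 7 held 19.7% and 19.3% of its UMIs in ribosomal protein genes in aPD-1 replicate 3 and IgG, 10.5 and 12.3 percentage points below the reference. In it 81 of 84 members were lower and 0 higher, where 21.5% of all genes were lower and 15% higher, with a median of -1.16 against -0.12 for all genes. Scaled to total UMIs only, the medians were -0.70 and 0.34, and 74 members were lower and 3 higher. The falls were uneven. Rpl10 stood at 1837 and 1938 CPM in the reference and 565 and 536 CPM in cluster 7 (-2.27 ± 0.06), and Rps15a (-2.12) and Rpl9 (-1.97) were next. Rps15 (-0.20) and Rpl36 (-0.35) had the smallest called changes, and their direction turned with the scaling: in plain CPM Rps15 stood at 2424 and 2703 in the reference and at 2933 and 3175 in cluster 7, and Rpl36 at 3302 and 3018 and at 3565 and 3173. In all, 6 of 84 members had a higher CPM in cluster 7 in both libraries. The members Rpl4 (-0.12), Rps19bp1 (-0.18) and Rpl39l did not pass. The median UMI count of these cells was 0.403 to 0.468 times that of their library. Their mitochondrial share was 3.82% to 4.88%, against 1.30% to 2.31% in the other states of the same libraries. With every cell thinned to the same UMI count, the mean difference in share from the reference was -12.1 points (-12.8 to -11.5). Before thinning it was -11.4 points. Cells with fewer UMIs than that count were left out of the thinned values. The part of the mitochondrial share in the result was not tested, nor was that of depth in the counts of single genes.

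The ratio of paralogs to their partners was compared between states. Paralogs are second genes for a ribosomal protein, of which some can take the partner's place in the ribosome. Rps27l (chr9:66946086-66949516, plus strand) had 14, 14.7, 10.8 and 12.5 UMIs per 100 UMIs of Rps27 in the reference cells of aPD-1 replicates 1, 2, 3 and IgG. In G2/M-like cells it had 23.2, 25.9, 22.5 and 26.7, and in precursor exhausted-like cells 9.79, 13, 8.44 and 9.37. The ratio was higher than in the reference in 4 of 4 libraries in the effector-like, G1/S-like, replication histone-like and G2/M-like states, with mean log2 differences of 0.57, 0.77, 0.77 and 0.93, and lower in 4 of 4 in precursor exhausted-like cells, with -0.36. Rps27rt, a near-identical copy of Rps27 whose reads cannot be told apart with certainty, kept 4.84 UMIs per 100 of Rps27 in both the reference and the precursor exhausted-like cells.

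Rpl7l1 had 2.03 to 2.43 UMIs per 100 of Rpl7 in the reference, 4 to 4.90 in effector-like cells and 1.5 to 2.01 in precursor exhausted-like cells, so that the effector-like range lay above both. Its mean log2 difference was 0.91 in effector-like and -0.36 in precursor exhausted-like cells. With states set by marker score instead of clusters, the log2 fold changes of Rpl7l1 and Rps27l themselves against the reference turned from -0.06 and -0.09 to 0.23 and 0.16 in precursor exhausted-like cells, and the ratios were not computed for these states. Rpl36al had 92.8 to 103 UMIs per 100 of Rpl36a in effector-like, 96.8 to 104 in effector memory-like, 78.3 to 83.7 in reference and 61.5 to 67 in precursor exhausted-like cells. None of the other 3 ranges overlapped with that of the reference. Rpl22l1 relative to Rpl22 differed more between libraries than between states: it stood at 55.1 and 55.4 UMIs per 100 in aPD-1 replicates 1 and 2 and at 40.3 and 39.7 in replicate 3 and IgG in the reference. Within libraries it was higher in G2/M-like cells (mean log2 difference 0.26) and lower in precursor exhausted-like cells (-0.13) in 4 of 4. Each difference named reached p = 0.13 in the exact sign-flip permutation test, the smallest possible, and an adjusted p of 0.278 over 40 such tests.

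**Figure D4:**
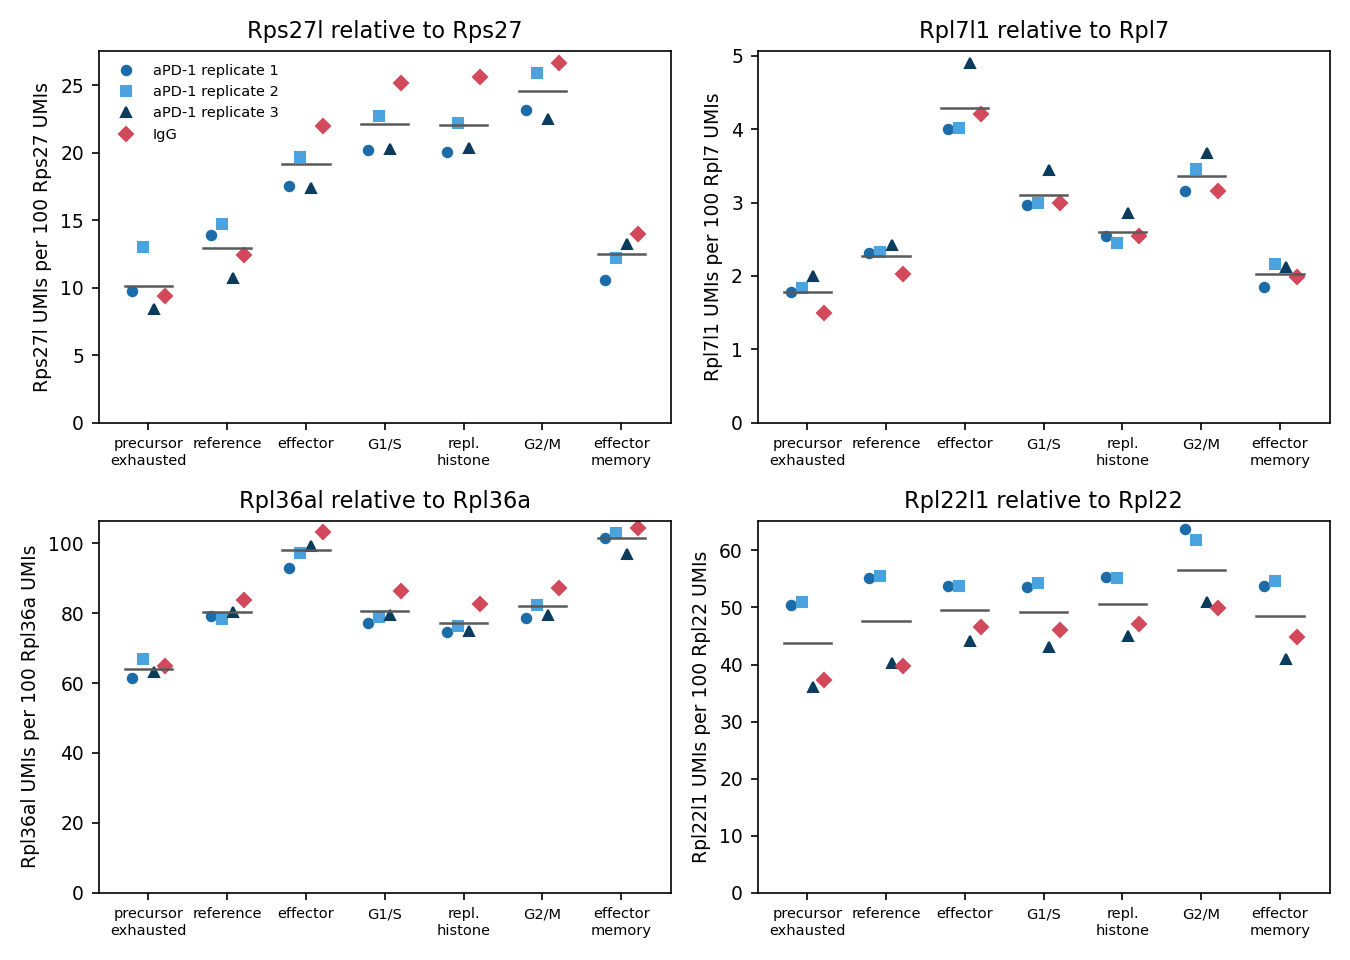
UMIs of 4 paralogs per 100 UMIs of the partner gene, by state, with 1 point per library and a grey line at the mean. All axes start at 0. Among the states with 4 libraries, the precursor exhausted-like cells have the lowest mean in each panel, Rps27l is highest in G2/M-like cells and Rpl7l1 in effector-like cells.

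Genes outside the family that followed it most closely were found by Pearson's r with the members' mean profile over the 32 sums of state and library, centred within library, among 3676 genes. The closest was Rack1, a scaffold protein of the small subunit that the name rule does not take in, with r = 0.981. Eef1a1 (0.974) and Eef1b2 (0.970), of the elongation factor that delivers tRNAs, Eif3e (0.946) and Ptpn1 (0.927) came next, followed by Naca, Hsd17b10, Cstb, Hmox2 and Eif3k. Without cluster 7, over 30 sums, Rack1 (0.954), Eef1b2 (0.934) and Eef1a1 (0.918) stayed the closest 3, while Eif3k fell to rank 68. These sums share libraries and depth, and r is given as a description. Over the same 30 sums, the correlation of a tested member with the members' mean profile was lowest for Rps27l (-0.42), Rpl7l1 (-0.04) and Rps19bp1 (0.01).

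Treatment was compared over libraries, to ask whether aPD-1 changed the ribosomal protein level of the tumour T cells. The members' share of UMIs was 29.8% ± 0.441 (SD, n = 3) with aPD-1 and 31.1% in the IgG library, a difference of -1.30 percentage points. All 3 aPD-1 libraries lay below IgG, with p = 0.25 in the exact permutation test, the smallest value that 3 libraries against 1 allow. The difference was -1.39 points after thinning, -1.17 points between aPD-1 replicate 3 and IgG, and between -1.05 and -1.48 points without 1 aPD-1 library. The IgG library was also the highest of the libraries within each of the named states.

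Gene by gene, 0 of 84 members and 0 of 13810 genes (0%) passed edgeR's test on 1 sum per library, in which the single IgG library was given the spread of the aPD-1 libraries. At an unadjusted p under 0.05 there were 3 members and 282 genes, and DESeq2 called 0 members and 5 genes. With a term for the pair of libraries that share a code, 283 genes and 0 members were called, 4 members had an unadjusted p under 0.05, and the members' median moved from -0.05 to -0.10. In 43 members every aPD-1 library lay below IgG (23.9% of all genes did), in 14 every aPD-1 library lay above it (22% of all genes), and 27 overlapped. The members with the smallest p all lay above. Rps27 stood at 2759, 2667 and 2506 CPM with aPD-1 and 1955 CPM with IgG (log2 fold change 0.45 ± 0.13). Rpl39 stood at 4958, 4954 and 4780 CPM against 3901 (0.34 ± 0.12), and Rps29 at 4356, 4148 and 4245 CPM against 3424 (0.32 ± 0.12). Each had an adjusted p of 0.987. Without aPD-1 replicate 3, 6 members were called, all above IgG: Rpl35 (0.92), Rpl39l (1.78), Rps27 (0.49), Rpl39 (0.37), Rps27l (0.31) and Rps27rt (0.30). In that fit 3316 of 13327 genes were called, and the fit rests on the 2 libraries with the shared code.

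Rpl35 differed between aPD-1 libraries. It stood at 2261 and 2169 CPM in aPD-1 replicates 1 and 2, at 1369 CPM in replicate 3 and at 1189 CPM in IgG, so that the spread within aPD-1 exceeded the gap between replicate 3 and IgG.

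Members that were higher with aPD-1 had short coding sequences. The longest annotated coding sequence of the 14 members above IgG in every library was 153 to 369 bases (median 264), that of the 43 members below IgG 357 to 906 bases (median 507), and that of the 27 others 138 to 1257 bases (median 429). Across the 84 members, which are not independent replicates, Spearman's rho between length and the log2 fold change was -0.449, and across 11981 other genes it was -0.039. These other genes were not matched to the members in length or level. The relation also differed between single libraries, with rho against IgG of -0.330, -0.323 and -0.669 in aPD-1 replicates 1, 2 and 3. It reached 0.329 between aPD-1 replicates 2 and 3, which had the same treatment. In precursor exhausted-like cells against the reference, rho over the 84 members was -0.132. The pattern was noticed in these data. Depth differed between the same libraries, and its part was not tested.

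**Figure D5:**
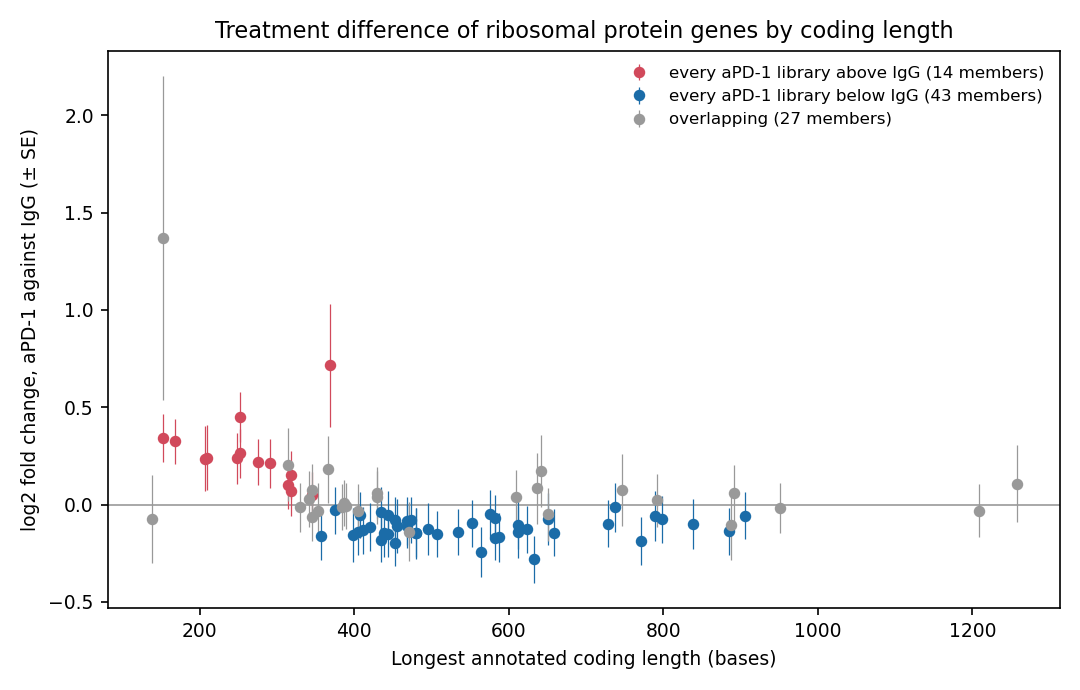
Log2 fold change of aPD-1 against IgG (± SE of the fit) of the 84 tested members against the longest annotated coding length in bases. The 14 members above IgG in every aPD-1 library (red) lie at 153 to 369 bases, left of nearly all of the 43 members below it (blue).

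The state differences themselves were tested for a change with treatment, in an interaction fit with 12 residual degrees of freedom. The single IgG library took its spread from the aPD-1 libraries, and cluster 7 and the interferon response-like cells had 1 library per treatment. None of the 84 members passed in any of the 8 states, whereas genes did in G1/S-like (0.399%), replication histone-like (0.699%) and G2/M-like cells (0.541%) and 0 genes (0%) in the others. At an unadjusted p under 0.05 there were 13 of 84 members and 772 of 12018 genes in cluster 7, and between 0 and 5 members in each other state.

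Knockouts were compared with nontargeting guides over 83 targets, with 1 sum per target and library of at least 10 cells and the library as a block. Calls of ribosomal proteins were few. Of 6972 tests of a member, 5 (0.0717%) passed, in 4 targets, against 0.0425% of all 828340 tests. The median log2 fold change of the members ranged from -0.14 for Pigp to 0.12 for Pigf, both with fewer than 50 cells. In cells with a guide against Alg12, a mannosyltransferase of glycan assembly, Rpl10 stood at 2949, 2666, 2314 and 2385 CPM in aPD-1 replicates 1, 2, 3 and IgG, against 2402, 2277, 1811 and 1940 CPM in nontargeting cells, and was higher in 4 of 4 libraries (log2 fold change 0.30 ± 0.06, adjusted p = 0.00178). This call was kept in 3 of 7 alternative settings, and each of the other calls in 6 of 7. Guides against Dhodh, the enzyme of pyrimidine synthesis, left 50 cells in 2 libraries. In these Rplp0 stood at 4805 and 4970 CPM in aPD-1 replicate 3 and IgG, against 5427 and 5776 CPM in nontargeting cells (-0.31 ± 0.06), and Rpl41 at 5018 and 4541 CPM against 6210 and 5307 CPM (-0.39 ± 0.07). Both were lower in 2 of 2 libraries, and the median over all members was -0.10, with -0.08 for all genes. In 51 cells with a guide against Pigw, of glycosylphosphatidylinositol anchor synthesis, Rpl3 stood at 2544, 2203 and 2306 CPM in aPD-1 replicates 1 and 3 and IgG against 2965, 2677 and 2991 CPM (-0.33 ± 0.06). In the same cells 2 of 84 members had a log2 fold change above 0 and 45 an unadjusted p under 0.05, with a median of -0.13 against -0.07 for all genes. With the aPD-1 libraries alone there were 23 such calls.

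The remaining call concerned Rpl39l, a paralog of Rpl39 (chr16:10170226-10174911, plus strand), in cells with guides against Man1b1, a mannosidase of the endoplasmic reticulum. The gene was nearly silent in these T cells. Across the series 91 of 23059 cells (0.395%) had a UMI of it, with 329 UMIs in all, and 46 cells had 3 or more. Of these 46 cells, 14 carried the same guide, Man1b1 guide 1, which accounted for 89 of the 329 UMIs. In aPD-1 replicate 1, 12 of 17 cells with this guide had the transcript, and in replicate 2, 6 of 12 did. In replicate 3, 0 of 14 cells did, which allows a share of up to 21.4%, and in IgG 0 of 26, which allows up to 11.5%. Guide 2 against Man1b1 had it in 0 of 4 and 0 of 7 cells of aPD-1 replicates 1 and 2, which allows shares of up to 75% and 42.9%, and guide 3 had only 1 cell in each of them, so that these libraries hardly bear on the other guides. Among the 22856 cells with guides to other targets or nontargeting guides, 73 (0.319%) had it. These limits are those of 3 cells, cover counting error only and limit cells with a UMI, not cells that express the gene. Median depth was also lower in replicate 3 and IgG, at 12084 and 6329 UMIs per cell against 16829 and 16325. The 14 cells were spread over the reference (2 cells), G1/S-like (4), replication histone-like (4) and effector-like (4) clusters. The UMIs thus came from cells of 1 guide in the 2 libraries that share a code, and the fitted fold change of the whole target was not used. Whether cells with this guide descend from 1 transduced cell was not tested, so that they may not be independent. Sds guide 2 gave a smaller instance, with 3 of 7 cells in aPD-1 replicate 1 and 22 UMIs.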

How the data were processed

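Single-cell RNA-seq with guide capture (CROP-seq, 10x Genomics 3′ v3.1 chemistry) was used as deposited. The authors mapped reads to mm10 with Cell Ranger 3.1.0 and deposited, per library, a filtered matrix of UMI counts per gene and cell, not normalized, with the guides called in each cell. Cells with exactly 1 guide were kept if their UMI count lay within 3 median absolute deviations of the library's median on the log scale and at most 10% of UMIs were mitochondrial. No doublet caller was run. The upper UMI limit and the single-guide rule removed part of the doublets. Libraries were integrated by canonical correlation analysis in Seurat 5.3.0 on 2000 variable genes without the members and clustered on 15 principal components at resolution 0.3. A cluster took a list's name where its leading gene belonged to the list with the most markers among the 10 leading genes and at least 3 markers of that list were detected. UMIs were summed per state and library (20 or more cells) or per target and library (10 or more), so that libraries and not cells were the replicates.

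Sums were fitted with edgeR 4.0.16 (quasi-likelihood test, TMM scaling, filterByExpr, Benjamini-Hochberg adjustment over all genes tested, threshold 0.05). State and knockout fits held the library as a block. For knockouts, each target was tested by a Wald statistic with the quasi-likelihood dispersion. Shares of UMIs were compared by exact permutation tests over libraries, all two-sided. Thinned values used 2000 UMIs drawn from each cell and left out the 163 cells below that number. Genes named were the 5 largest rises and falls of each state contrast among those past the threshold with a mean of at least 4 on the log2 CPM scale, members that moved against the majority, all stalk proteins and paralogs, every knockout call, and the 3 smallest p-values for treatment. Paralogs against their partners, the direct contrast of precursor exhausted-like with effector-like cells, the coding length and the cells with Rpl39l were looked at after seeing the data. The members and lists were chosen with earlier results of these data known. The scripts were tested on simulated data. DESeq2 1.42.0, other scalings, a term for the library pair with a shared code, no filter on low counts, other resolutions, states set by marker score, nontargeting cells alone and leaving out each library were the alternatives. Some members named by this rule are not reported here.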

Additional observations from a re-analysis of the deposited data

Results flagged for a closer look

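The share of UMIs from ribosomal protein genes in interferon response-like cells, relative to the reference cluster, was -1.30 percentage points in the aPD-1 library that had enough of these cells and 0.0755 percentage points in IgG. The direction thus differed between treatments, with 1 library each, and the difference was not tested.

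Pseudogene copies of the members, which the name rule left out, took up to 0.0165% of the UMIs in a library. These copies entered no comparison.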

How the results depend on the processing

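Of the recomputed values that answer a comparison, 221 were kept, 24 shifted in size, 11 reversed, 9 lost their calls and 1 gained calls. A count was kept if its direction held and it was equal to the main count or within 1.5-fold of it. A difference in share was kept if its sign held. Those kept include all those of the number of members above the reference in precursor exhausted-like cells (71 to 80) and below it in cluster 7. In the treatment comparison, 0 members were called in every setting run, a term for the pair of libraries with a shared code included, but without aPD-1 replicate 3, where 6 were. Without that library the direct contrast of precursor exhausted-like with effector-like cells had 47 members higher and 11 lower, and without cluster 7 it had 56 and 12.

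The counts in cycling, effector memory-like and interferon response-like cells depended on the processing. In cells with nontargeting guides, 8 members were lower in G1/S-like (10 higher), 30 in G2/M-like and 2 in effector memory-like cells. With states set by marker score, 17 were lower in G1/S-like (39 higher), 1 in effector memory-like (8 higher) and 0 in interferon response-like cells (12 higher), and the share differences became 0.515, 0.202 and 0.810 points. In aPD-1 replicates 1 and 2 alone, 7 were lower in G1/S-like (11 higher) and 27 in G2/M-like cells. In aPD-1 replicate 3 and IgG alone, the lower members were 15 in G1/S-like (19 higher), 30 in replication histone-like, 26 in G2/M-like, 4 in effector memory-like (10 higher) and 0 in interferon response-like cells. At resolution 0.5 they were 21 in G1/S-like, 12 in effector memory-like and 0 in interferon response-like cells, and at resolution 0.2 they were 29 in replication histone-like, 31 in G2/M-like and 0 in interferon response-like cells. With the members among the variable genes, 30 were lower in replication histone-like cells. Scaling to total UMIs only gave 37 higher in effector-like and 0 lower in interferon response-like cells. With libraries scaled on other genes, with DESeq2 or without cluster 7, 0 were lower in interferon response-like cells. Without a filter on low counts they were 57 in effector memory-like and 2 in interferon response-like cells.

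With single libraries left out, the lower members numbered 15 to 29 in G1/S-like, 26 to 53 in G2/M-like, 15 to 52 in effector memory-like and 0 to 2 in interferon response-like cells, whose share difference ranged from -1.30 points without IgG to 0.0755 points without aPD-1 replicate 3. Knockout calls numbered 8 with total UMIs only, 28 without a filter, and 2 to 23 with a library left out, of which 23 in the aPD-1 libraries alone and 2 to 4 without an aPD-1 library. The cause of these shifts was not tested.

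Single genes reversed under marker-score states in interferon response-like cells (log2 fold change Rpl14 0.0783, Rpl17 0.0153, Rpl35 0.0968, Rpl9 0.0324, Rplp1 0.0810), G1/S-like cells (Rpl22l1 0.0892, Rplp1 0.0882, Rplp2 0.00823), precursor exhausted-like cells (Rpl7l1 0.23, Rps27l 0.16) and effector memory-like cells (Rpl7l1 0.0202). In effector memory-like cells Rps19bp1 was 0.26 and Rps21 -0.12 with nontargeting guides, and Rps27l was 0.26 in aPD-1 replicate 3 and IgG alone. Rps27rt in effector-like cells was 0.15 in aPD-1 replicates 1 and 2 alone. The splits into these pairs of libraries, the fit without cluster 7 and the removal of cells with other types' genes were chosen after seeing the data.

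At resolution 0.2 and with members among the variable genes, no cluster matched the G1/S-like or the effector memory-like cells, and none matched cluster 7 by marker score. State and knockout fits held the library as a block. No paired analysis was possible because, for aPD-1 against IgG, the IgG group has 1 library and the replicate numbers follow accession order.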
